A study of Mus musculus with 3 samples.

Results

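The genes described here encode enzymes of cholesterol synthesis and a regulator of that pathway, namely Hmgcs1, Idi1, Fdps, Fdft1, Sqle, Lss, Dhcr7 and Insig1. They were listed by name because sterol regulatory element-binding protein 2 (SREBP2) controls them, and every array probe with 1 of these 8 symbols in the platform annotation was taken. A probe was found for 6 of the 8 genes, out of 19057 genes with a named probe, and Hmgcs1 and Fdft1 are not analysed here. The 6 genes have 14 probes.

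RNA came from 3 related mouse cell lines, with 1 Illumina bead array for each. Lewis lung carcinoma is a tumour of C57BL/6 mice, and its LLC/luc cells carry luciferase. The parental line (P) was injected into the hearts of C57BL/6 mice, and cells cultured from a tibial lesion gave the sub-line LLC/luc BM 1st. These were injected in turn, and cells from the resulting bone lesions gave LLC/luc BM 2nd. All 3 lines were grown in DMEM with fetal bovine serum and received no treatment before RNA extraction. Each sub-line is a single culture, and the sources used here do not say whether it grew from 1 clone or from many cells. The comparison asks how the genes differ between parental cells and cells selected for growth in bone. With 1 array per line no p-value can be given, no difference has a replicate check, and precision is limited by how few arrays there are.

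Animal cells build cholesterol from acetyl-CoA through mevalonate, isoprenoid diphosphates, squalene and lanosterol. When sterols in the endoplasmic reticulum run low, the escort protein SCAP carries the SREBPs to the Golgi, where proteases encoded by Mbtps1 and Mbtps2 release the part that enters the nucleus. It binds sterol regulatory elements beside factors that bind CCAAT and GC boxes, and raises transcription of the genes of the pathway. INSIG proteins hold SCAP back when sterols are plentiful, and Insig1 is itself induced by SREBP. Serum in the medium supplies cholesterol in lipoproteins, so cultured cells make and take up sterol side by side.

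The stretches of 250 bases before the RefSeq start sites of Insig1, Idi1 and Lss (GRCm38.p6) are shown as examples. Each holds letters of a CCAAT and a GC box, and of the 3 only that of Insig1 holds letters like a sterol regulatory element. The 3 stretches lie on the plus strand at chr5:28071162-28071411, chr13:8885356-8885605 and chr10:76531355-76531604. Capitals mark matches, on either strand, to CACNCCAC (like a sterol regulatory element), CCAAT and GGGCGG (a GC box), and no match overlaps another.
Insig1: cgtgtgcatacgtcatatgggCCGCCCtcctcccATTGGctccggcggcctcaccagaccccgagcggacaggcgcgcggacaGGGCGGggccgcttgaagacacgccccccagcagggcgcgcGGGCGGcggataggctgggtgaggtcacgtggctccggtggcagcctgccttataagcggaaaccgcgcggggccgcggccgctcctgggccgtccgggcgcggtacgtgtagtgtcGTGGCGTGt
Idi1: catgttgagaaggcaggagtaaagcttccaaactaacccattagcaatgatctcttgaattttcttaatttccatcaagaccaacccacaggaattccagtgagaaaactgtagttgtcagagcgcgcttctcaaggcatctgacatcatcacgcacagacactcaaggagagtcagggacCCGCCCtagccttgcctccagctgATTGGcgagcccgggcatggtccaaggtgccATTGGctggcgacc
Lss: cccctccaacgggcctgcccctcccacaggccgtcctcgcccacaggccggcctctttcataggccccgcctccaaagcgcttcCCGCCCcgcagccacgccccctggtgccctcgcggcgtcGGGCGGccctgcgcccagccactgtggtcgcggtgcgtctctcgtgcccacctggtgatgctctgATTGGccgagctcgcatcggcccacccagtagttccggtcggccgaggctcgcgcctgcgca

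The Insig1 stretch holds CACNCCAC on the minus strand, 9 bases before the start site, where it reads GTGGCGTG on the plus strand. The Idi1 stretch holds CCAAT on the minus strand at 45 and at 14 bases before the start, and that of Lss at 62 bases before it. The set of RefSeq promoters used here holds 7 such stretches for 5 of the 8 genes, Hmgcs1 and Dhcr7 being the others. It holds none for Sqle, Fdps or Fdft1, which therefore do not enter the shares below. CCAAT was found in 5 of the 7 (71.4%) against 33.8% of all 32851 stretches of the same length, and each of the 5 genes has a stretch that holds it. GGGCGG was found in 6 of the 7 (85.7%) against 32.7%, and CACNCCAC in 2 of the 7, those of Hmgcs1 and Insig1, against 5.29%. Among 13 stretches of 12 other sterol synthesis enzymes, 11 held CCAAT, 11 GGGCGG and 1 CACNCCAC. A match describes these letters in this window and not binding, and nothing on the arrays measures it.

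The deposited intensities are linear and had been quantile normalized across the arrays. Olfactory and vomeronasal receptor genes, silent in most tissues, set the background. The 95th percentile of their 1504 probes was 109 in parental cells, 110 in the BM 1st line and 107 in the BM 2nd line. Background stays in the values, which shrinks the ratios of dim genes. A gene entered a comparison if its brightest probe exceeded background in either line, and counted as changed past a log2 ratio of 1 or -1. For 3154 genes with more than 1 probe above background on all arrays, the median SD between probes of a gene was 0.13 to 0.14 on the log2 ratio scale, and the SD of the receptor probes was 0.12. These spreads lie within single hybridisations and hold no spread between cultures. Of 8 epithelial and lung markers, the keratin genes Krt8 and Krt18 were above background on all arrays. So was Cdh1, close to background at 121, 116 and 125. Krt7 was above it in parental and BM 2nd cells only, and Epcam, Krt19, Nkx2-1 and Sftpc were on no array.

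None of the 6 genes passed the threshold in any of the 3 comparisons. In BM 2nd against parental cells 1.83% of 10579 genes were higher and 1.53% were lower. In BM 1st against parental cells 2.04% of 10377 genes were higher and 1.79% were lower, and in BM 2nd against BM 1st cells 3.01% of 10562 genes were higher and 1.78% were lower. With so few genes passing in the whole table, a count of 0 among 6 does not set the members apart.

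Below the threshold, the 6 genes lay mostly a little lower in BM 1st cells and a little higher in BM 2nd cells. Their median log2 ratio was -0.21 for BM 1st over parental, with 4 of 6 ratios below 0, and the median over all genes was -0.01. For BM 2nd over parental it was 0.30, with 5 of 6 above 0, against 0.01 over all genes. For BM 2nd over BM 1st it was 0.36, with 6 of 6 above 0, against -0.01 over all genes, 48.7% of which were above 0. Each pair of these comparisons shares an array, so these medians are not independent of each other. The sixth gene in BM 2nd over parental is Sqle, whose ratio of -0.01 becomes 0.13 when each array is centred on the median of its own probes above background, a scaling that moves all ratios of this comparison by 0.14.

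**Figure D1:**
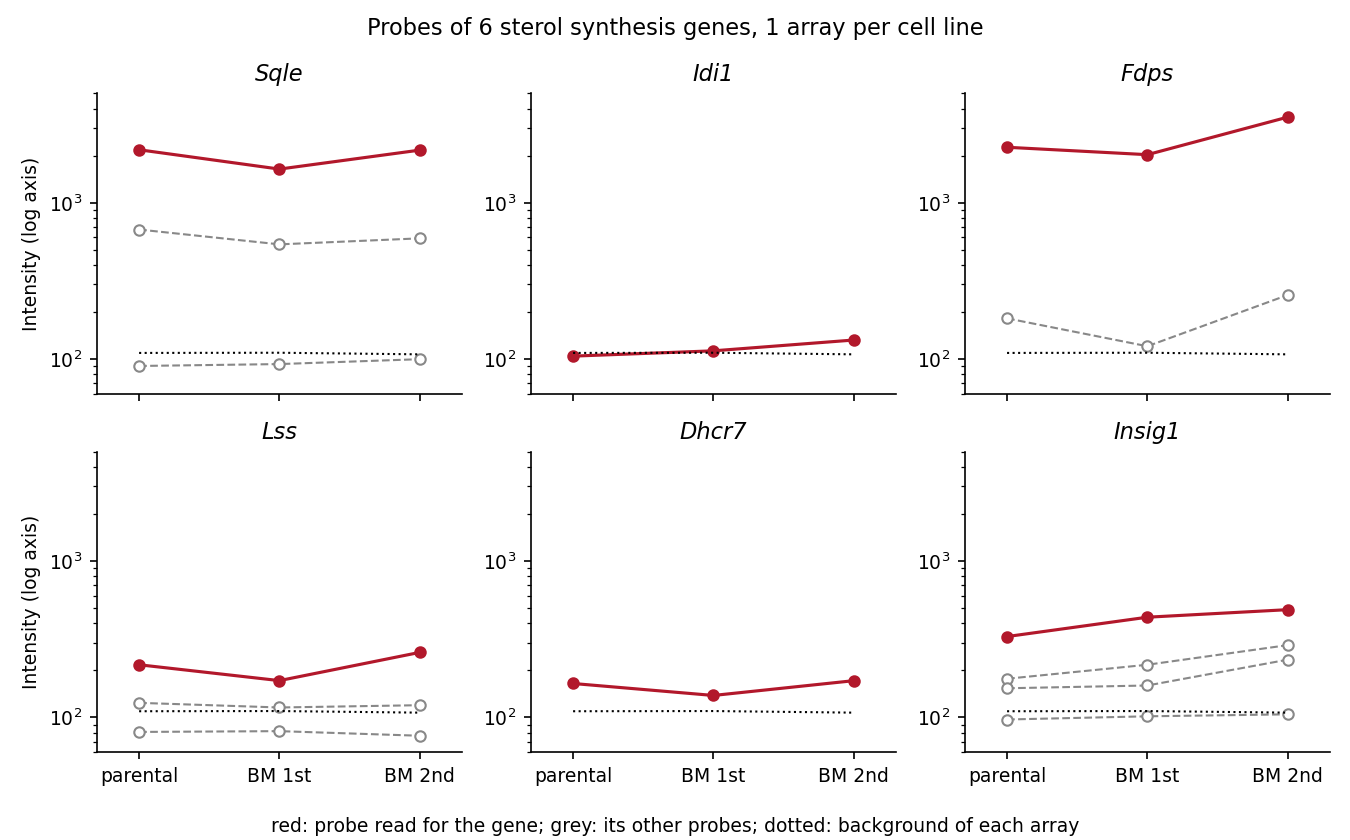
Intensity (vertical log axis) of the 14 probes of 6 sterol synthesis genes in the parental line and its BM 1st and BM 2nd sub-lines (horizontal axis), 1 array per cell line. Red points are the probe read for each gene, grey open points its other probes and dotted lines the background; Fdps is brightest in BM 2nd cells at 3530, and Idi1 stays near background at 104, 113 and 132.

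Isoprenoid synthesis is covered by Idi1 and Fdps. Fdps, farnesyl diphosphate synthase, makes the isoprenoid that both sterols and protein farnesylation draw on. Its intensity was 2265 in parental cells, 2031 in the BM 1st line and 3530 in the BM 2nd line, so BM 2nd cells stood apart from the other 2 lines. As a log2 ratio, BM 2nd over parental was 0.64, a 1.56-fold difference, and 5.62% of all genes had a higher ratio. Over BM 1st cells it was 0.80, or 1.74-fold, with 4.83% of genes higher. The other Fdps probe, at intensities of 182, 121 and 257, gave log2 ratios of 0.50 for BM 2nd over parental and 1.09 for BM 2nd over BM 1st. Both probes therefore placed BM 2nd highest and BM 1st lowest, by more than the usual spread between probes for BM 2nd, but they gave BM 1st over parental as -0.16 and -0.59.

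Idi1 encodes isopentenyl diphosphate isomerase, which interconverts the pair of building blocks of all isoprenoids. Its only probe read 104 in parental cells, not above background, 113 in the BM 1st line and 132 in BM 2nd cells. Measured against the parental background, Idi1 exceeded it at least 1.21-fold in BM 2nd and at least 1.03-fold in BM 1st cells. BM 2nd cells had the highest value, and all 3 values lie near background.

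The committed steps from squalene to cholesterol are covered by Sqle, Lss and Dhcr7. Sqle, squalene epoxidase, adds the oxygen that later becomes the hydroxyl group of cholesterol and is a control point of the pathway. Its intensity was 2183 in parental cells, 1642 in the BM 1st line and 2171 in the BM 2nd line. On this brightest probe, parental and BM 2nd cells were alike to within the spread between probes, with a log2 ratio of -0.01. BM 1st cells were lower than parental cells at -0.41, a 1.33-fold difference. In that comparison 12.1% of all genes had a lower ratio than Sqle. Its other probe above background, at 674, 542 and 592, likewise put BM 1st lowest, with log2 ratios of -0.32 for BM 1st over parental and -0.19 for BM 2nd over parental. The latter lies past the usual spread between probes. For BM 2nd over BM 1st that probe gave 0.13, within the spread, where the brightest gave 0.40. The remaining Sqle probe exceeded background in none of the lines.

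Lss, lanosterol synthase, folds epoxidised squalene into the first sterol. Its brightest probe read 217 in parental cells, 172 in the BM 1st line and 260.5 in the BM 2nd line, again lowest in BM 1st cells. The log2 ratio was -0.34 for BM 1st over parental, 0.26 for BM 2nd over parental and 0.60 for BM 2nd over BM 1st, a 1.52-fold difference. Another Lss probe, near background at 124, 116 and 120, gave ratios of -0.10, -0.05 and 0.05, so the pattern rests on the brightest probe. Dhcr7, the reductase of the last step of cholesterol synthesis, had 1 probe, at 165 in parental cells, 138 in the BM 1st line and 172 in the BM 2nd line. Its log2 ratios were -0.25, 0.06 and 0.31 in the same order of comparisons. For Dhcr7 the parental and BM 2nd values were indistinguishable by the spread between probes, and BM 1st was the lowest.

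**Figure D2:**
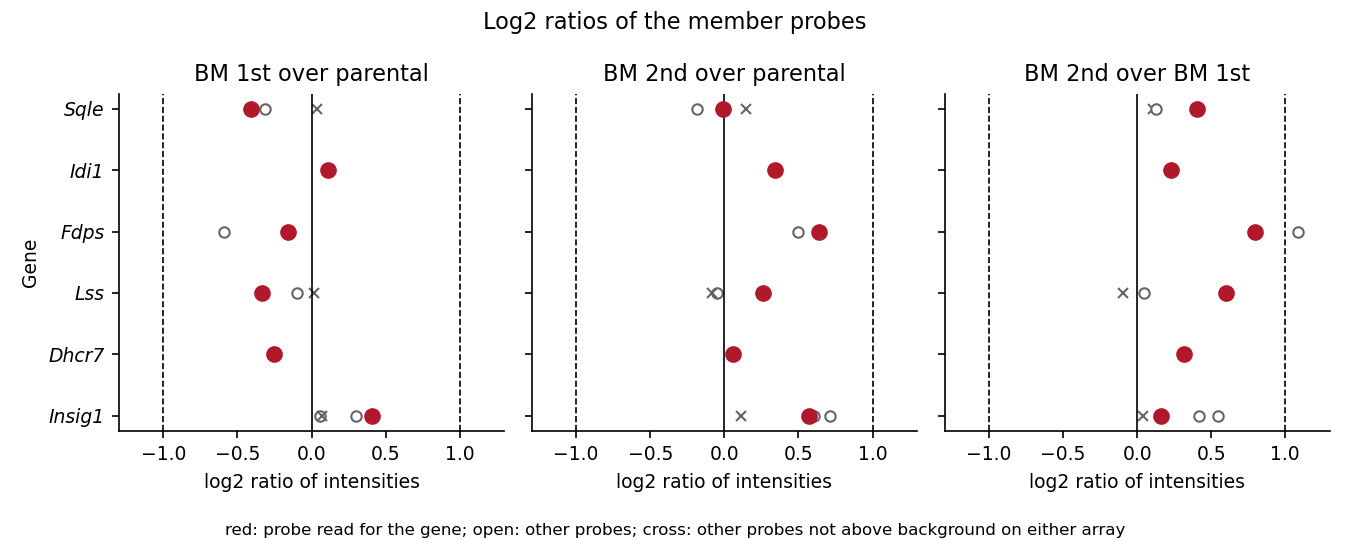
Log2 ratios of intensity (horizontal axes) for each probe of the 6 genes (vertical axis) in the 3 comparisons, 1 array per cell line. Red points are the probes read for each gene, open points other probes, crosses other probes not above background on either array, and dashed lines the threshold of 1; the only point past it is the dimmer Fdps probe at 1.09 in BM 2nd over BM 1st.

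Insig1, the member with a regulatory role, holds SCAP in the endoplasmic reticulum. Its brightest probe read 329 in parental cells, 437 in the BM 1st line and 489 in the BM 2nd line, so parental cells were lowest. The log2 ratio was 0.41 for BM 1st over parental, and 11.7% of all genes had a higher ratio. Among the member enzymes Idi1 was at 0.11 and the other 4 lay between -0.41 and -0.16. For BM 2nd over parental Insig1 was at 0.57, or 1.49-fold, with 7.09% of genes higher. Its other probes above background gave 0.30 and 0.06 for BM 1st over parental and 0.71 and 0.61 for BM 2nd over parental. The 3 probes thus put BM 2nd above parental cells by 0.57 to 0.71, and above BM 1st cells by 0.16, 0.42 and 0.55. They differed by more than the usual spread on BM 1st over parental and on BM 2nd over BM 1st. The remaining Insig1 probe exceeded background in none of the lines.

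By likeness of pattern, 5 genes lay nearest to the median of the 6 members, taken as the Euclidean distance over the log2 ratios of BM 1st and BM 2nd to parental cells among 8642 other genes above background on all 3 arrays. They were Arfgap2, Tecr, Marchf2, Fbxl6 and Vps4a, at distances of 0.01 to 0.02. A pattern over 3 arrays holds only 2 ratios, and 124 genes lay within 0.1 of the same median. Nearest to Sqle were Faap20 and Cstf3, to Fdps Cul7 and Kctd1, to Lss Vwa8 and Nudt1, to Dhcr7 Traf5 and Hypk, to Insig1 Cep164 and Tceal1, and to Idi1 Park7 and Ifitm5. Fdps had the fewest such neighbours, 36 genes within 0.1, and Dhcr7 the most, 208.

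The other enzymes of sterol synthesis spread more widely than the 6 members. Of 11 with a probe, 10 were above background in BM 1st or parental cells, and 1 of these passed upward in BM 1st cells and 0 downward, with a median log2 ratio of -0.14. In BM 2nd against parental cells 0 of 11 passed in either direction (median 0.11), and likewise in BM 2nd against BM 1st cells (median 0.14). Hsd17b7, a 3-ketosteroid reductase of the pathway, was the gene that rose, from 364 in parental to 768 in the BM 1st line and 565 in BM 2nd cells, a log2 ratio of 1.08 for BM 1st over parental. Its other probe was not above background in those 2 lines. Named after their values were seen, Mvd, the decarboxylase of the mevalonate steps, read 287, 485 and 477, and Cyp51, lanosterol demethylase, read 575, 406 and 672. Mvd was thus above parental in both sub-lines, as Insig1 was, with log2 ratios of 0.76 and 0.73, but was level between them at -0.02. Cyp51 was lowest in the BM 1st line, like Sqle and Lss, at -0.50 over parental. For BM 2nd over parental it was at 0.22, where Lss was at 0.26 and Sqle at -0.01. Msmo1 and Sc5d, likewise named after their values were seen, went other ways. Ratios to parental, BM 1st then BM 2nd, were 0.29 and -0.12 for Msmo1, -0.55 and -0.41 for Sc5d. Across the list, 4 of 10 ratios lay above 0 for BM 1st over parental, against 8 of 11 for BM 2nd over parental.

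Of 7 genes of SREBP processing and control, none passed in any comparison, with median log2 ratios of -0.05 for BM 1st over parental, 0.08 for BM 2nd over parental and 0.16 for BM 2nd over BM 1st. The following 3 were named after their values were seen. Srebf2, the gene of SREBP2, read 717 in parental cells, 1033 in the BM 1st line and 829.9 in the BM 2nd line, and its other probe gave log2 ratios of 0.38 and 0.29 over parental where the brightest gave 0.53 and 0.21. Scap read 468, 238 and 333, a log2 ratio of -0.98 for BM 1st over parental, just inside the threshold, while its other probe, near background at 116, 114 and 113, gave -0.03. Insig2, the other INSIG gene, read 1189, 1981 and 1279.6 on its brightest probe, a log2 ratio of 0.74 for BM 1st over parental, and 949.6, 2112 and 1039 on another, a ratio of 1.15. Insig2 was thus highest in BM 1st cells on both probes, whereas Insig1 was highest in BM 2nd cells.

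Among genes of sterol uptake and lysosomal release the median in BM 1st cells lay above 0, where that of the members lay below it. Of 9 with a probe 7 were above background, and from parental to BM 1st cells 3 of the 7 passed upward and 0 downward (median log2 ratio 0.75). In BM 2nd over parental cells 4 of the 7 ratios were above 0 (median 0.48), and for BM 2nd over BM 1st the median was -0.20. Without the filter on dim genes the medians over 9 were 0.51, 0.03 and -0.05. In BM 2nd against parental cells 0 of 7 passed, and from BM 1st to BM 2nd cells 3 of 7 passed downward. Npc1, which exports cholesterol from lysosomes, read 1749 in parental cells, 4332 in the BM 1st line and 1597 in the BM 2nd line, a log2 ratio of 1.31 for BM 1st over parental and of -1.44 for BM 2nd over BM 1st. Of its other probes above background, 1 passed in both comparisons at 1.02 and -1.03, and the other gave 0.45 and -0.54. Lipa, the lysosomal lipase that frees cholesterol from esters, read 602, 1287 and 1125, a rise of 1.10 on the log2 scale in BM 1st over parental cells and a ratio of 0.90 in BM 2nd over parental cells. Its other probe, at 342, 622 and 488, gave 0.86 and 0.51 and did not pass.

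Lrp8, a receptor of the LDL receptor family that binds apolipoprotein E, read 280 in parental cells, 619 in the BM 1st line and 199 in the BM 2nd line. Its log2 ratios were 1.14 for BM 1st over parental and -1.64 for BM 2nd over BM 1st. Other Lrp8 probes, above background in BM 1st cells only, gave 0.56 and 0.14, then -0.46 and -0.16, in these comparisons and did not pass. Vldlr, the very low density lipoprotein receptor, read 559, 719 and 333, a ratio of -1.11 for BM 2nd over BM 1st. Its other probes above background on all arrays gave -0.92 and -0.99 there, on the near side of the threshold. In the list of efflux, esterification and oxysterol genes, 1 of 5 passed upward from parental to BM 1st, 1 of 5 upward from parental to BM 2nd, and 1 of 4 downward from BM 1st to BM 2nd cells. Nceh1, a cholesteryl ester hydrolase, read 4229, 10362 and 3703, with ratios of 1.29 for BM 1st over parental and -1.48 for BM 2nd over BM 1st. Ch25h, which makes an oxysterol that holds back SREBP processing, did not exceed background in the parental line. It read 258 in BM 2nd and 150.5 in BM 1st cells, at least 2.36-fold and at least 1.37-fold above the parental background.

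**Figure D3:**
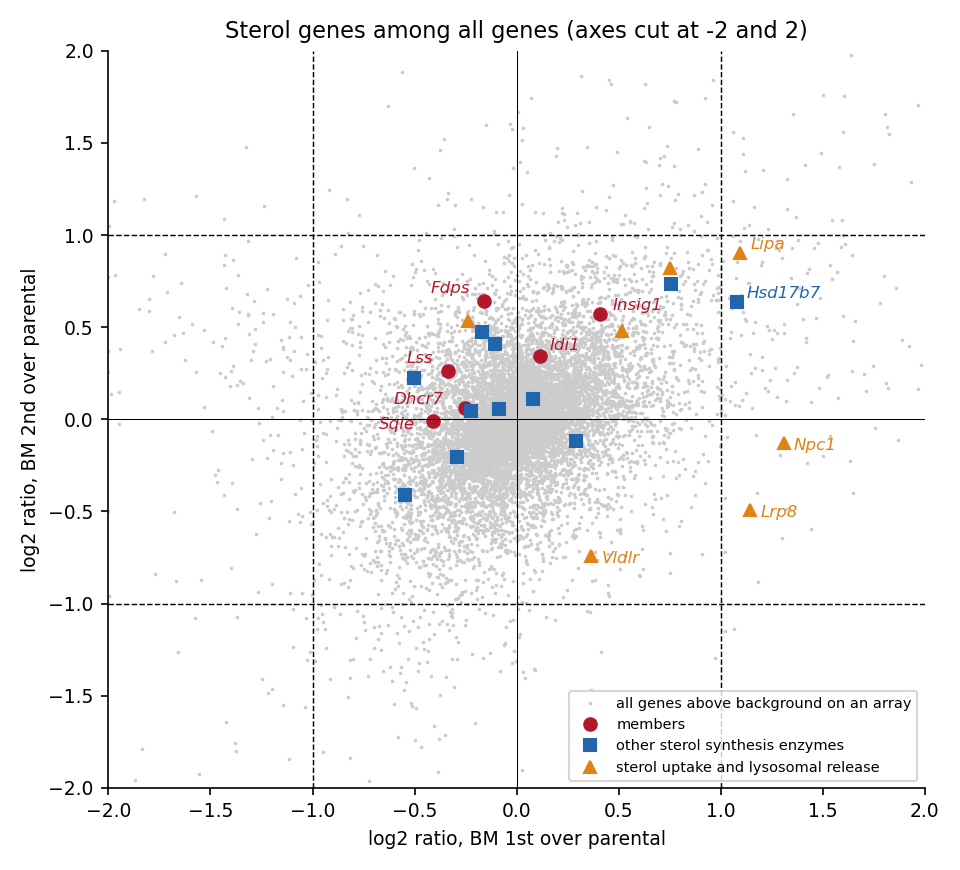
Log2 ratio of BM 1st to parental intensity (horizontal axis) against that of BM 2nd to parental intensity (vertical axis) for all genes above background on an array (grey; axes end at -2 and 2), 1 array per cell line. The 6 members (red circles) lie inside the dashed threshold lines of 1, with Fdps at 0.64 and Insig1 at 0.57 on the vertical axis, while Npc1, Lrp8 and Lipa of the uptake list (orange triangles) and Hsd17b7 (blue square) lie past 1 on the horizontal axis; the axes share the parental array.

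Genes of neighbouring lipid pathways did not pass the threshold. Of 10 genes of fatty acid synthesis under SREBP1 above background, none was higher or lower in any comparison, and the medians were -0.03 for BM 1st over parental, 0.28 for BM 2nd over parental and 0.30 for BM 2nd over BM 1st. Of 6 genes of the non-sterol isoprenoid branch above background none passed either, with medians of -0.30, 0.04 and 0.32 in the same order. The fatty acid median for BM 1st over parental and the isoprenoid median for BM 2nd over parental lay within the spread between probes. Over the 7 fatty acid genes above background on all arrays the former was 0.08.

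Genes of cell proliferation were also lowest in BM 1st cells, and their median was farther from 0 than that of the members in both comparisons with that line, but not in BM 2nd over parental. Of 12 above background 9 passed downward from parental to BM 1st cells and 0 upward, with a median log2 ratio of -1.38. From BM 1st to BM 2nd cells 9 of 13 passed upward and 0 downward (median 1.43), while in BM 2nd against parental cells 0 of 13 passed (median 0.28). The replication gene Mcm5 read 2857, 535 and 3728 and the mitotic kinase gene Plk1 1142, 285 and 1953, both lowest in BM 1st cells. For BM 1st over parental, Mcm5, Tyms and Top2a had log2 ratios of -2.42, -2.44 and -1.80. The part of proliferation in the values of Sqle, Lss, Dhcr7 and Fdps was not tested, and the growth state of each culture cannot be told apart from its line.

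Genes listed as markers of other cells also differed between the arrays. The summed intensity of 9 leukocyte markers was 899.7 in parental cells, 2407 in the BM 1st line and 1351 in the BM 2nd line, with 2, 7 and 5 of the 9 above background. The highest of the 9 in parental cells read 115, near background. Lyz2 was the largest part of the sum in both sub-lines, at 1078 and 365. Unlike the sum, Coro1a was highest in BM 2nd cells, at 113, 133 and 173. Lyz2, Laptm5 and Fcer1g were below background in parental cells and exceeded it at least 9.84-fold, 3.36-fold and 2.33-fold in BM 1st cells, while Itgam and Tyrobp were not above background on any array. The sum over 11 fibroblast and marrow stroma markers was 6913, 5534 and 8948, with 6, 6 and 7 of the 11 above background. Vcam1 was the largest part of each sum, at 4277, 2836 and 4299. Col3a1 and Fbln1 were also above background in the parental line, at 1107 and 544, so neither is particular to cells from bone. Pdgfrb, Thy1 and Postn were above background on no array. In BM 1st over parental cells 1 of 7 passed upward and 1 downward, Pdgfra at a log2 ratio of 1.72 and Fbln1 at -1.01. Col3a1 was at -0.41 there. Col1a1 in BM 2nd cells was at least 3.76-fold above the parental background, which it did not exceed in the parental line. Col1a2 stayed near background at 110, 107 and 104. For BM 2nd over BM 1st the log2 ratio was 1.22 for Col3a1 and 1.15 for Fbln1. The keratin genes Krt8 and Krt18, from the epithelial list, were at 1.33 and -0.84 there. Of 5 adipocyte markers only Lpl and Pparg were above background on any array, with Lpl at 189, 666 and 569, and Adipoq, Plin1 and Fabp4 were on none. Of 7 osteoblast and osteoclast markers 3, 1 and 2 were above background in parental, BM 1st and BM 2nd cells and none passed the threshold. Sp7 came nearest, at 103, 101 and 197, with log2 ratios of 0.93 for BM 2nd over parental and 0.96 over BM 1st. The other Sp7 probe was above background on no array. In bulk RNA the share of such cells and the RNA per cell cannot be told apart, and their part in the sterol gene values was not tested.

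**Figure D4:**
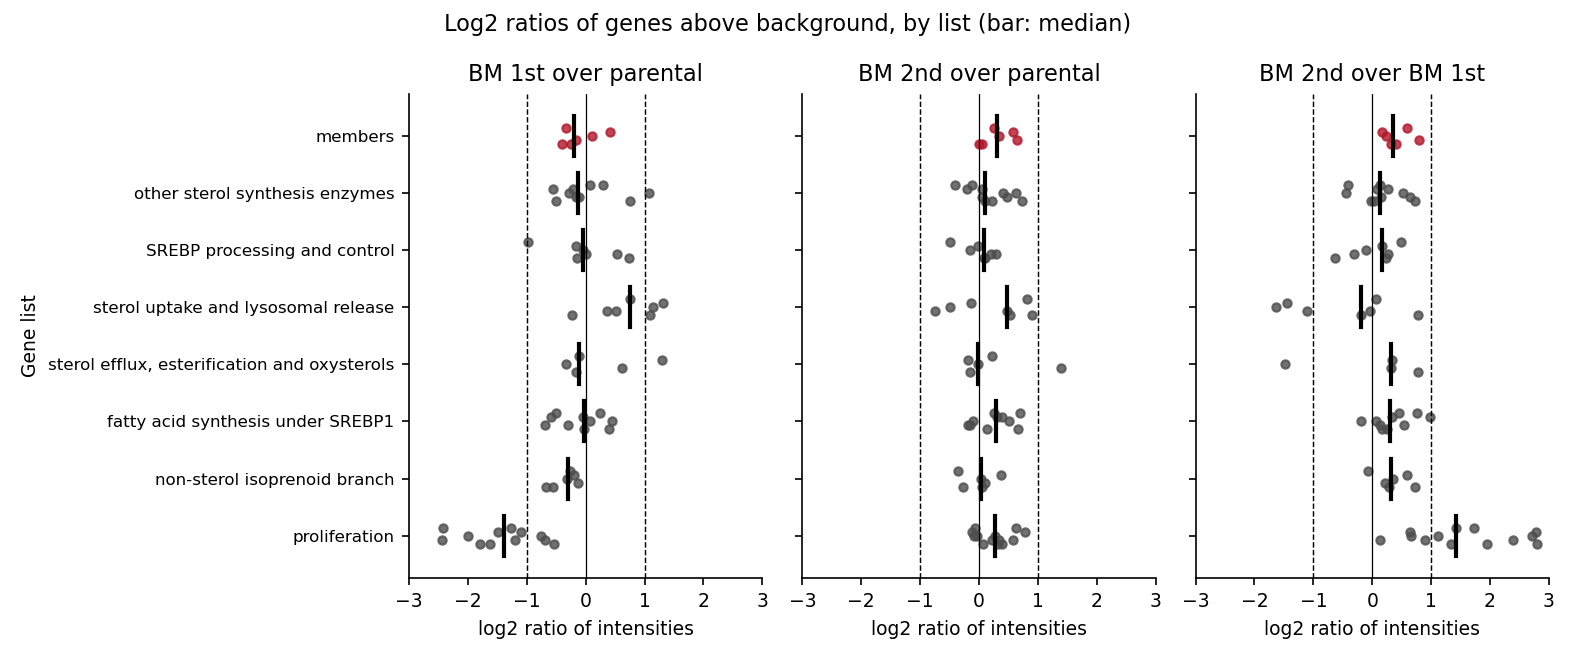
Log2 ratios of intensity (horizontal axes) of genes above background in 8 gene lists (vertical axis) for the 3 comparisons, each gene as 1 point and each line measured on 1 array, with black bars at list medians and dashed lines at 1 and -1. The median of the 6 members (red) is -0.21, 0.30 and 0.36 from left to right, that of proliferation genes -1.38, 0.28 and 1.43, and that of uptake genes 0.75, 0.48 and -0.20 (0.51, 0.03 and -0.05 without the filter on dim genes).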

How the data were processed

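Total RNA of the 3 LLC/luc lines was measured on 1-colour Illumina bead arrays, 1 per line. The authors deposited linear intensities for 45281 probes, made with GenomeStudio 2011.1 according to the submitters' processing notes. After sorting, no 2 arrays differ by over 0.274 at any rank, and the lowest value is 60.2, as quantile normalization without background subtraction leaves them. Settings of that step were not given in the sources used here. Depth does not apply to arrays, whose number limits the precision.

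Log2 ratios came from pandas 2.3.3 and numpy 2.4.6 under Python 3.11.15, and figures from matplotlib 3.10.9. Probes were named from the platform annotation (34885 with 1 gene, 18 with several, 10378 with none), with symbols and promoters from RefSeq (GRCm38.p6). Each gene is represented by the probe whose mean log2 intensity is highest. Of 130 genes in 13 lists 112 had a named probe. Genes named outside the members were those past the threshold (up to 4 per list for lists other than sterol synthesis, control and uptake) and the nearest in pattern. Markers of other cell types that did not pass the threshold fall outside this rule and were named after their values were seen. They are Itgam, Tyrobp, Coro1a, Vcam1, Pdgfrb, Thy1, Postn, Col1a2, Sp7, Pparg, Adipoq, Plin1, Fabp4, Krt18, Krt19, Krt7, Cdh1, Epcam, Nkx2-1 and Sftpc. The other genes so marked were also named after their values were seen. Members and lists were chosen with earlier results of these data known. Simulated data with known changes were used to test how calls are counted. Alternatives varied background, filter, normalization, probe and threshold. With no replicates, a member value was taken to have moved when it differed by more than the median SD between probes of a gene.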

Additional observations from a re-analysis of the deposited data

How the results depend on the processing

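That no member passed held in all 3 comparisons with background at the 99th percentile, no background filter or background exceeded on both arrays. It also held with both centrings and with probes averaged. Without Idi1, only 5 members entered BM 1st over parental at the 99th percentile. The same 5 entered both comparisons with parental cells when both arrays had to exceed background. In 3 other settings some members did pass. With the receptor median subtracted, 1 member passed in BM 2nd over parental (Idi1, whose parental value then rests on the floor) and 1 in BM 2nd over BM 1st (Lss at 1.08), while the shares of all genes past the threshold went from 3.37% to 10.7% and from 4.79% to 13.5%. On the second brightest probe, 1 of 4 passed in BM 2nd over BM 1st (Fdps at 1.09). At 1.5-fold, 1 passed in BM 2nd over parental (Fdps) and 2 in BM 2nd over BM 1st (Fdps and Lss), against 12.9% and 15.7% of all genes. Subtraction moved the members' medians to 0.55 in BM 2nd over parental and 0.81 in BM 2nd over BM 1st. Centring each array on its own probes above background, chosen after seeing the data, moved them to 0.44 and 0.52, and moved the share of higher genes among all calls from 54.5% to 72.9% and from 62.8% to 80.2%. Medians kept their sign in all of these settings. Of 135 single values recomputed 38 moved by more than the spread between probes and 2 changed sign, Sqle under that centring and Lss on its second probe, both in BM 2nd over parental. No paired analysis was possible because each line has 1 array. For dim genes such as Idi1, the remaining background limits what a ratio can show.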
